A study of Caenorhabditis elegans with 12 samples.

Results

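The flp and nlp genes are the major families of neuropeptide precursor genes of Caenorhabditis elegans: flp genes encode FMRFamide-like peptides and nlp genes encode the other neuropeptide-like proteins. The members are all genes of the deposited tables whose symbol begins with flp- or nlp-. The names table holds 102 such symbols, and 100 of them, 31 flp and 69 nlp, are among the 24619 genes of the tables. The genes nlp-39 and nlp-62 were not analysed here. RNA was taken from whole young adult animals of 4 groups with 3 libraries each. Wild-type animals (strain N2) and adr-2(-) animals (strain BB20, carrying the allele adr-2(ok735) in every cell) were raised from hatching on bacteria with an empty vector (control RNAi) or with a vector that targets sqd-1. The gene adr-2 encodes the active adenosine deaminase that edits RNA in this animal, and sqd-1 encodes an RNA-binding protein. The design asks how sqd-1 depletion and adr-2 loss, alone and together, change transcript levels. The labels do not say whether replicates are separate cultures, so p-values measure the spread between these samples. The adr-2(-) animals are of 1 strain, and feeding RNAi was given from hatching in the whole animal, so no effect can be placed in a cell type.

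Neuropeptide precursors enter the secretory pathway, are cut at basic residues by proprotein convertases, trimmed by a carboxypeptidase and often amidated, and are then packed into dense core vesicles whose release needs the CAPS protein UNC-31. The mature peptides act on G protein-coupled receptors and are removed by extracellular peptidases such as neprilysins. Most flp genes and many nlp genes are expressed in sets of neurons that differ from gene to gene, so one gene can report on few cells. A group of nlp genes differs from the rest: nlp-29 and its relatives are expressed in the epidermis, where they encode antimicrobial peptides that are induced by fungal infection and wounding. In RNA from whole animals, fewer cells of a type and less RNA per cell cannot be told apart.

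The libraries held 29042770 to 33984832 reads, with 12.9 to 23.8 M of them off the ribosomal RNA genes. Both sqd-1 and adr-2 went with the labels. In wild-type, sqd-1 had 14854 ± 2099.6 normalized reads (SD, n = 3) without and 1401 ± 27.4 (SD, n = 3) with RNAi against it, and adr-2 had 0 to 4 reads in each adr-2(-) library. The wild-type animals on sqd-1 RNAi also had less adr-2 transcript, which went from 926 ± 127 to 402 ± 85.4 normalized reads (SD, n = 3), with a log2 fold change of -1.21 (adjusted p = 8.82e-05 from limma). Of the 100 members, 89 passed the minimum mean of 10 normalized reads in at least 1 comparison. The other 11, namely flp-23, nlp-22, nlp-23, nlp-32, nlp-45, nlp-46, nlp-48, nlp-52, nlp-60, nlp-66 and nlp-76, reached at most 17 reads in any library and were not tested. A pair of libraries stood apart for these genes: in adr-2(-), replicate 2 was the highest of the 3 replicates for 68 of the 77 tested members outside the epidermal group on control RNAi, and for 74 of 77 on sqd-1 RNAi. Over all genes, that replicate was the highest for 42.5% and 40.1% of genes. The median SD of the members over the 3 replicates, on the log2 scale, was 0.32 for control and 0.23 for sqd-1 RNAi in wild-type. In adr-2(-) it was 0.67 for control and 0.83 for sqd-1 RNAi.

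The level of a gene was compared with that of other genes per kilobase of annotated exon, on a scale common to the 12 libraries. In wild-type animals on control RNAi the highest level of the family was that of nlp-27, at 4899.8 ± 927 normalized reads per kilobase (SD, n = 3), with libraries of 5939, 4160 and 4600. It was followed by nlp-24 at 4157 ± 409, and the libraries of these neighbours in the order overlapped. The epidermal gene nlp-33 had a level of 2440.4 ± 581 normalized reads per kilobase. Next were nlp-36, at 1823 ± 404, and nlp-40, an intestinal peptide gene that acts in the defecation rhythm, at 1711 ± 98.6 normalized reads per kilobase. Their libraries overlapped as well. The highest flp gene was flp-28, in the eighth place of the family, at 466 ± 43.1 normalized reads per kilobase. The 5 highest genes together gave 50.8% to 53.8% of the normalized reads of the family in wild-type on control RNAi and 39.3% to 42.3% on sqd-1 RNAi. The whole family made up 0.0581% to 0.0770% of the reads outside ribosomal RNA genes in wild-type on control RNAi and 0.1002% to 0.136% on sqd-1 RNAi. These groups were separate, with p = 0.1 by exact permutation (two-sided), which is the lowest p that 3 against 3 libraries can give. In adr-2(-) the shares were 0.0492% to 0.0762% and 0.0634% to 0.102%, and the groups overlapped (p = 0.2, exact permutation). The remaining comparisons had p of 0.2 or 0.3 by that test. As summed normalized reads, the family in wild-type had 9838 to 12029 on control RNAi and 13400 to 16368 on sqd-1 RNAi.

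In wild-type animals, sqd-1 RNAi raised transcripts across the neuropeptide families. Of 87 tested members, 50 rose and 1 fell (limma, Benjamini-Hochberg adjusted p under 0.05, over all genes tested). Among all 14489 genes tested 61.1% were called, with 27.3% higher and 33.8% lower, and 57.5% of the members were higher. The median log2 fold change of the members was 0.66, where that of all genes tested was 0.04. The changes were of moderate size, and 13 of the called members changed at least 2-fold. Of the 30 tested flp genes 20 rose and none fell, with a median of 0.65. All 30 estimates were above 0, from 0.30 to 1.14, where 51.5% of all genes were above 0. Among the nlp genes 30 of 57 rose and nlp-36 fell, with a median of 0.67 and a range from -0.81 to 2.12. In 55 members all 3 sqd-1 RNAi libraries lay above all 3 control libraries, as they did for 31.7% of all genes. In the authors' deposited table, 33 members were higher and 1 lower at the same threshold, beside 20.6% and 27.1% of the genes given an adjusted p there.

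Leaving out any library lowered the count, to 29 members without wild-type control replicate 2 and to between 37 and 47 without another library. Control replicate 2 was the lowest of its group for 54 of the 77 members outside the epidermal group. The share of all genes called in these smaller fits was not counted. With the replicate number as a block, 54 rose and 2 fell, beside 29.7% and 36.1% of all genes. Fitting all 12 libraries together, so that the wider spread of the adr-2(-) libraries entered the test, left 4 members higher and none lower. In that fit 4.60% of the members were higher, which is below the 13.2% of all genes, and 21.6% of all genes were lower. Scaling moved the median of all genes from 0.04 to between 0.08 and 0.24, and edgeR called 5215 genes (36%) higher and 4169 lower where limma called 3957 and 4892. For the members edgeR called 66 higher and 1 lower, and DESeq2 40 and 1, beside 26.5% of all genes higher with DESeq2. Between 82 and 83 of the 87 members were above 0 under each of these scalings, and the median of the members stayed 0.62 to 0.64 above that of all genes.

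**Figure D1:**
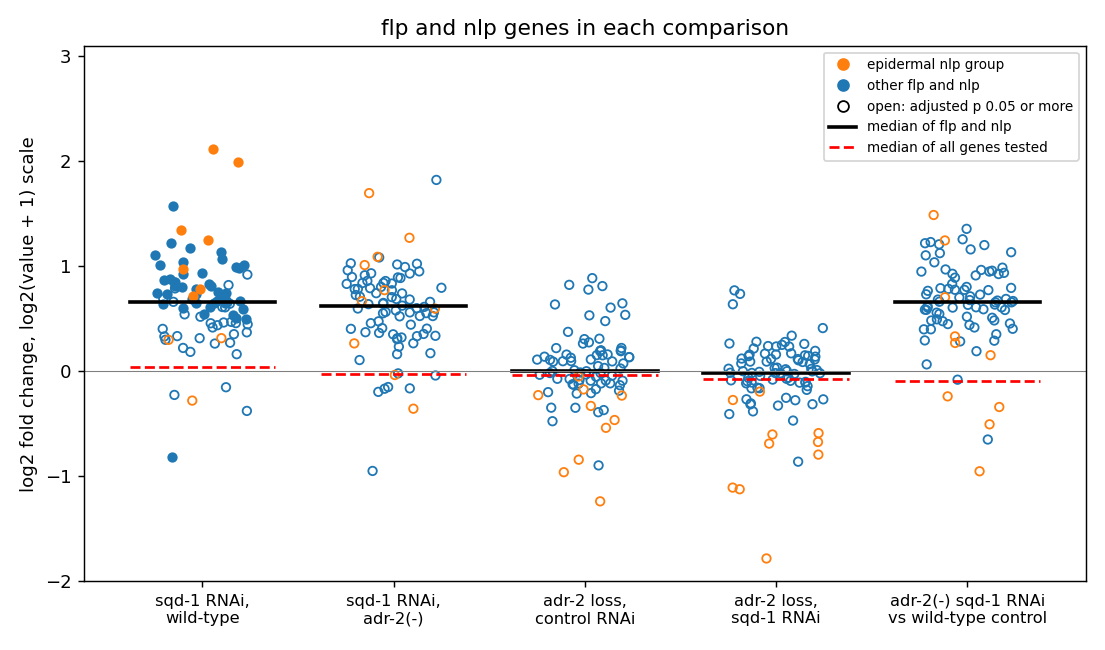
Log2 fold change of each tested flp and nlp gene (points, y axis, on the log2(value + 1) scale) in the 5 pairwise comparisons (x axis). Filled points have an adjusted p under 0.05, black lines are the medians of the members and red dashed lines those of all genes tested; the 2 comparisons of adr-2 loss have member medians of 0.01 and -0.01, while the others lie between 0.63 and 0.66.

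The epidermal antimicrobial genes included the largest rises of the family. Of the 11 genes of this group, 10 were tested and 7 rose in wild-type on sqd-1 RNAi, with a median log2 fold change of 0.88. Among all genes tested 27.3% rose. The largest rises were those of nlp-34 and nlp-29. The normalized read counts of nlp-34 were 12.3, 21.6 and 35.9 in the 3 control libraries and 114, 66.6 and 115.02 in the 3 sqd-1 RNAi libraries. All sqd-1 RNAi libraries were above all control libraries, and the log2 fold change was 2.12 ± 0.36 (SE; adjusted p = 0.000194 from limma). For nlp-29, which encodes the best studied antimicrobial peptide of the epidermis, the counts were 158, 62.1 and 88.8 on control and 349, 260.0 and 621 on sqd-1 RNAi. The groups again did not overlap, at a log2 fold change of 1.99 ± 0.34 (SE; adjusted p = 0.000202 from limma). Counts of nlp-31, whose peptide also has antifungal activity, were 197, 103 and 121 and then 361, 246 and 375, a log2 fold change of 1.25 ± 0.25 (SE; adjusted p = 0.00073 from limma). Those of nlp-30 were 31.7, 37.8 and 49.3 and then 97.4, 77.9 and 134, a log2 fold change of 1.35 ± 0.26 (SE; adjusted p = 0.0006 from limma). Neither gene had overlapping groups. The log2 fold changes of nlp-28, nlp-25 and nlp-33 were 0.98, 0.78 and 0.72, each with an adjusted p of 0.0216 or less from limma.

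Of the abundant genes of the group, nlp-33 rose, and nlp-27, nlp-24 and nlp-26 were not called. The gene nlp-24 had counts of 1492, 1726 and 1889.5 on control and 1406, 1278 and 1520.0 on sqd-1 RNAi, at a log2 fold change of -0.28 ± 0.16 (SE; adjusted p = 0.139 from limma). With the replicate number as a block its adjusted p was 0.0478, in the direction of a fall. The most abundant member, nlp-27, had a log2 fold change of 0.32 ± 0.18 (SE) with an adjusted p of 0.135, or 0.0205 with the block. The gene nlp-26 was at 0.30 with an adjusted p of 0.212, all from limma. Of the group, 6 genes, nlp-34, nlp-31, nlp-30, nlp-29, nlp-28 and nlp-27, lie in this order within 1 stretch of chromosome V, from position 3978825 to 3989770 of the WBcel235 build. Along it, the log2 fold changes were 2.12, 1.25, 1.35, 1.99, 0.98 and 0.32, so adjacent genes had unequal estimates. These genes are related copies, and how reads that match more than 1 of them were counted is not given in the sources used here.

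Other antimicrobial and regulatory genes of the epidermis were examined beside them. Of the caenacin genes, which encode a second family of epidermal antimicrobial peptides, 4 of 5 tested rose: cnc-4, cnc-2, cnc-10 and cnc-3, by 1.70, 1.32, 1.31 and 1.18 on the log2 scale. Of 14 regulators of epidermal immunity, 2 rose and none fell, where 27.3% of all genes tested rose and 33.8% fell. They were snf-12, which encodes a transporter-like protein needed for induction of nlp-29, at 0.75 ± 0.22 (SE), and dbl-1, which encodes the TGF-beta ligand that acts on caenacin genes, at 0.69 ± 0.20 (SE). The p38 kinase gene pmk-1 had 506, 394 and 341 normalized reads on control and 417, 470.2 and 356 on sqd-1 RNAi, with a log2 fold change of 0.01. With edgeR or TMM scaling, 5 of the 14 regulators were called higher, beside 36% and 32.3% of all genes, which is a like share. Markers of the epidermis moved both ways: 4 of 8 rose and 2 fell, and their summed level was 21643 to 24818 normalized reads in the wild-type control libraries and 15288 to 20614 in the sqd-1 RNAi libraries, none of the 8 being at 0. The cuticle collagen dpy-7 rose by 3.98 and the hedgehog-related wrt-2 by 3.56, while the epidermal regulator lin-26 fell, with a log2 fold change of -1.73. On control RNAi these averaged 17.6, 16.5 and 1299 normalized reads, so other markers carried most of the sum. The part of these genes in the change of the nlp genes was not tested.

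**Figure D2:**
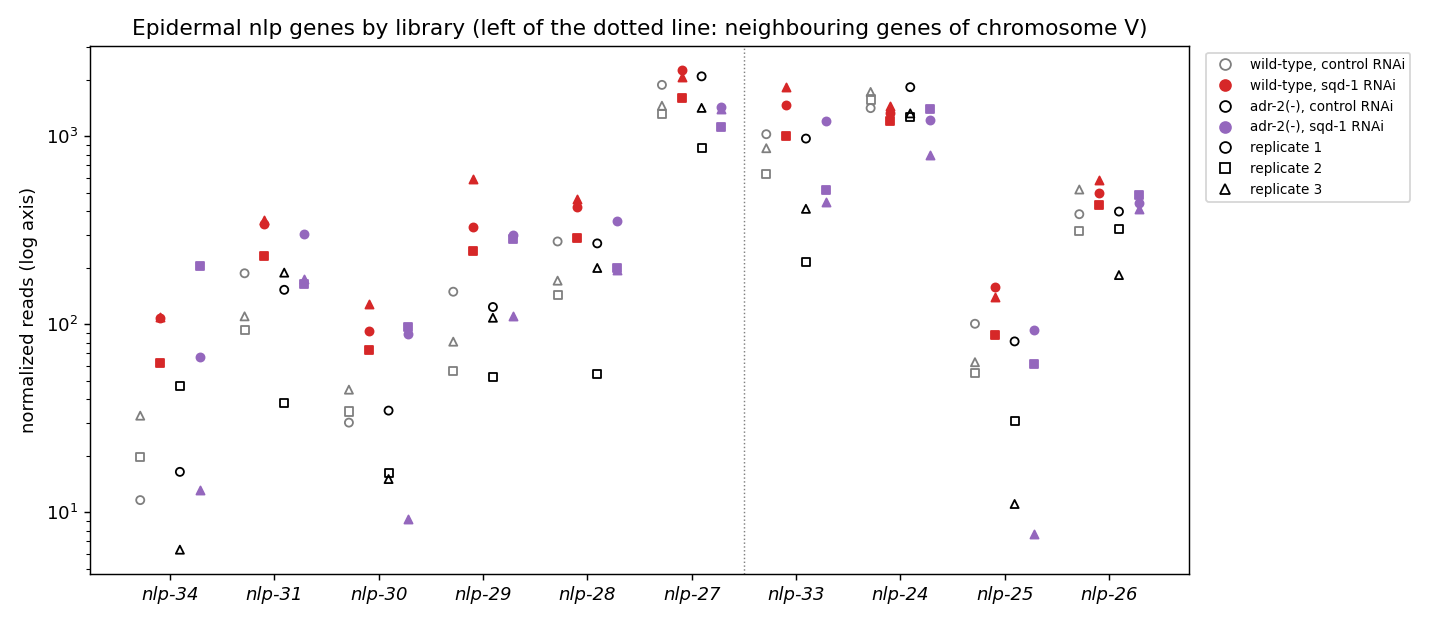
Normalized reads (y axis, log scale, common scale of the 12 libraries) of the 10 tested epidermal nlp genes (x axis) in each library, by group (colour) and replicate number (shape). The wild-type sqd-1 RNAi libraries lie above the control libraries for nlp-34 to nlp-28, and replicate 3 of adr-2(-) on sqd-1 RNAi lies far below the other sqd-1 RNAi libraries for nlp-34, nlp-30 and nlp-25.

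Some neuropeptide genes with known neuronal roles rose as well, in short lists that stand beside the 27.3% of all genes that rose. All 5 tested genes of sleep and quiescence rose. The RIS neuron gene flp-11, which induces sleep, had normalized read counts of 113, 82.4 and 109 on control and 182.17, 147 and 159 on sqd-1 RNAi, and the log2 fold change was 0.69 ± 0.20 (SE; adjusted p = 0.00932 from limma). The ALA neuron gene flp-13, which acts in sleep after stress, had counts of 41.9, 35.1 and 38.6 and then 68.1, 64.8 and 68.7, a log2 fold change of 0.79 ± 0.23 (SE; adjusted p = 0.00807 from limma). Both had separate groups. Also expressed in ALA, flp-24 and nlp-8 rose by 0.60 and 0.75, and nlp-14 rose by 0.69, the 5 log2 fold changes lying between 0.60 and 0.79. The sixth gene of the list, nlp-22, had too few reads to test.

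Of the 4 genes of the egg-laying circuit, 2 rose, beside 27.3% of all genes. The BAG neuron gene flp-17, whose peptides inhibit egg laying through the receptor EGL-6, had counts of 108.42, 67.5 and 105 on control and 172, 142 and 169.8 on sqd-1 RNAi, and rose by 0.80 ± 0.22 (SE; adjusted p = 0.00661 from limma). Expressed in the HSN neurons and stimulating egg laying, nlp-3 had counts of 57.3, 37.8 and 50.2 and then 85.9, 74.1 and 84.1, a rise of 0.75 ± 0.23 (SE; adjusted p = 0.0126 from limma). In both genes the groups were separate. The other ligand gene of EGL-6, flp-10, was at 0.30 with an adjusted p of 0.2, and nlp-7 at 0.22 with an adjusted p of 0.37, from limma. The receptor gene egl-6 fell, from 71.6, 83.7 and 53.8 to 29.3, 26.3 and 16.98 normalized reads, with a log2 fold change of -1.50 ± 0.29 (SE; adjusted p = 0.000516 from limma).

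Among the genes of locomotion and the motor circuit, 4 of 8 rose, beside 27.3% of all genes: flp-8, flp-18, flp-9 and flp-1. The AVK neuron gene flp-1, whose loss makes animals move with exaggerated bends, had counts of 144, 95.9 and 155 on control and 175, 189.6 and 247 on sqd-1 RNAi, and a log2 fold change of 0.64 ± 0.22 (SE; adjusted p = 0.0239 from limma). The log2 fold changes of flp-8, flp-18 and flp-9 were 0.88, 0.67 and 0.65. The cholecystokinin-like nlp-12 was at 0.36 with an adjusted p of 0.185, and flp-14, nlp-9 and flp-22 at 0.46, 0.47 and 0.45 also missed the threshold. With edgeR, TMM or upper-quartile scaling 6 of the 8 were called. Both genes for ligands of NPR-1, the receptor that sets aggregation behaviour, rose. Counts of flp-21 were 9.21, 6.75 and 19.7 on control and 23.03, 23.5 and 27.02 on sqd-1 RNAi, at a log2 fold change of 1.11 ± 0.40 (SE; adjusted p = 0.0272 from limma), and those of flp-18 were 114, 83.7 and 121 and then 147, 174 and 185. DESeq2 called flp-18 alone of the pair.

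Other large rises included members with few reads. The counts of nlp-68 were 4.09, 13.503 and 7.17 on control and 31.4, 26.3 and 16.98 on sqd-1 RNAi, at a log2 fold change of 1.57 ± 0.44 (SE; adjusted p = 0.00724 from limma). For nlp-51 they were 28.6, 12.2 and 43.0 and then 54.4, 70.4 and 54.04, at 1.22 ± 0.38 (SE; adjusted p = 0.0125 from limma), and for nlp-64 12.3, 6.75 and 8.97 and then 26.2, 18.8 and 20.8, at 1.17 ± 0.37 (SE; adjusted p = 0.0137 from limma). In all of these genes the groups were separate, although each control group held a library with under 14 normalized reads. The genes flp-19, flp-34, nlp-78 and nlp-61 rose by 1.14, 1.07, 1.04 and 1.013, with adjusted p of 0.0022, 0.0246, 0.0419 and 0.00897 from limma. With the replicate block nlp-78 had an adjusted p of 0.0506. The gene nlp-4, with 81.8, 132 and 131 normalized reads on control and 216, 276 and 198 on sqd-1 RNAi, rose by 1.013 ± 0.23 (SE; adjusted p = 0.00159 from limma); it was picked out after its values in adr-2(-) had been seen.

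The single member to fall was nlp-36, from 529, 704 and 862 to 385, 358 and 428 normalized reads, with a log2 fold change of -0.81 ± 0.19 (SE; adjusted p = 0.00237 from limma). It lies on the plus strand of chromosome III at 9488731 to 9489186 (WBcel235), and its exons overlap those of dars-1, an aspartyl-tRNA synthetase gene on the opposite strand, which had 47112 reads over the 12 libraries where nlp-36 had 6890. The gene dars-1 itself fell by 0.63 on the log2 scale (adjusted p = 0.00409 from limma). Since the use of strand in counting is not given in the sources used here, reads of these genes cannot be told apart. In all, 15 members overlap an exon of a protein-coding gene, and without them 44 of 74 tested members rose and none fell. The abundant nlp-40 had counts of 1309, 1258 and 1407 on control and 1175, 1186 and 1217 on sqd-1 RNAi, all below the control libraries, with a log2 fold change of -0.15 ± 0.14 (SE; adjusted p = 0.382 from limma) whose sign turned positive under upper-quartile scaling and edgeR.

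Of the 100 members 32 lie on the X chromosome, where 14.6% of all genes of the tables lie. The others lie on chromosomes V (21), IV (15), II (13), III (12) and I (7). The X-linked members, of which 14 of 26 tested rose in wild-type, had a median log2 fold change of 0.69, and the autosomal members, of which 36 of 61 rose and nlp-36 fell, had one of 0.65. Among all X-linked genes 20.9% rose and among all autosomal genes 28.3%.

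Genes that make, release, sense and remove neuropeptides were described in the same comparison. Of 5 tested neuropeptide genes outside the flp and nlp families 4 rose, namely lury-1, pdf-1, snet-1 and pdf-2, and the pigment dispersing factor gene pdf-1 went from 185, 129.6 and 218 to 371, 279 and 281 normalized reads. Of 10 genes for processing enzymes 6 rose and none fell, with a median log2 fold change of 0.46. They included egl-3, the proprotein convertase, at 0.52, its chaperone sbt-1 at 0.54, the furin-like kpc-1 at 0.49 and the amidation enzyme pgal-1 at 0.62. Genes of dense core vesicles moved both ways, with 4 of 16 called higher and 3 lower, a share of higher genes close to the 27.3% of all genes. The release factor unc-31 rose by 0.68, while eipr-1 and rab-10, which act in vesicle biogenesis, and the kinase gene pkc-1, which promotes release, had log2 fold changes of -0.99, -0.96 and -0.80.

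Of 101 receptor genes 74 were tested, and 21 rose and 2 fell, at a median of 0.51. Their largest changes were those of frpr-10, at 2.00, egl-6, at -1.50, npr-8, at 1.25, and dmsr-8, at 1.20. With the replicate block npr-8 had an adjusted p of 0.0523 from limma. The count of higher genes ran from 13 with DESeq2 to 34 with edgeR, beside 26.5% and 36% of all genes. Of the neprilysin genes, whose products cut peptides outside cells, 17 of 21 tested rose and none fell, with a median of 1.27. The 4 largest rises were those of nep-3, nep-5, nep-23 and nep-6, at 2.55, 2.16, 2.15 and 2.02, and nep-3 went from 19.4, 17.6 and 17.9 to 114, 117 and 106 normalized reads. The share of receptor genes that rose was close to the 27.3% of all genes, and that of the neprilysin genes was above it.

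Markers of neurons moved both ways. The counts of tissue markers given here stand beside the 27.3% of all genes tested that rose and the 33.8% that fell. For the pan-neuronal and synaptic list the shares were 30.8% and 23.1%, so its counts do not set it apart from other genes. Of 13 pan-neuronal and synaptic markers 4 rose (tbb-4, ric-4, rab-3 and unc-64) and 3 fell (maco-1, unc-33 and snb-1), with a median log2 fold change of 0.35 and none at 0. Their summed level was 5922 to 6974 normalized reads on control RNAi and 4753 to 5065 on sqd-1 RNAi, and maco-1 alone went from 2640.0 to 912 on average. Of 10 tested markers of neurotransmitter classes eat-4, of glutamatergic neurons, rose, and tdc-1 and tbh-1, which are also expressed in gonadal cells, fell. The 12 genes of that list summed to 5208 to 6340.4 on control RNAi and 2077 to 3403 on sqd-1 RNAi. Most of that sum came from tdc-1 and tbh-1, which went from 2962 to 612 and from 2975 to 1883 on average. The sum thus does not describe the other genes of the list. Muscle markers, of which 5 of 6 rose, had a median of 0.60, close to that of the neuropeptide genes, and a summed level of 72057 to 90391 on control RNAi and 113587 to 130847 on sqd-1 RNAi. Of the germline markers, 7 of 8 oocyte markers fell, at a median of -2.87 and a summed level of 72558 to 99679.6 before and 9398 to 22187 after, and 10 of 10 sperm markers rose, at a median of 1.88 and a summed level of 2924 to 3833 before and 9601 to 12565 after. Of the 6 intestine markers 1 (ifb-2) rose and none fell, with a summed level of 20754 to 24971 before and 21366 to 22479 after. Of the 6 markers of male-specific neurons 1 (lov-1) had enough reads to test, and it was not called. The part of these tissues in the change of the neuropeptide genes was not tested.

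In adr-2(-) animals the estimates of the sqd-1 RNAi effect were of like size, but the libraries spread more widely and no member was called. Of 87 tested members limma called 0, edgeR 0 and DESeq2 1 (nlp-4), and 3 had an unadjusted p under 0.05. Among all 14068 genes limma called 0.0284%, edgeR 0.0213% and DESeq2 10.2%, and 21.2% had an unadjusted p under 0.05. The median log2 fold change of the members was 0.63 beside -0.03 for all genes, and 78 of 87 were above 0, as were 48.8% of all genes. That median was 0.18 without replicate 2 of the sqd-1 RNAi group and 0.35 without replicate 3 of the control group. With the replicate number as a block, 18 members rose and nlp-36 fell, at a background of 17.1% of all genes higher and 28.5% lower. The 20.7% of the members that rose in this fit is near that background. With the block in both genotypes, 17 members were called in both, which is 30.4% of the 56 called in wild-type and 89.5% of these 19. The other members called here, flp-14 and flp-3, had adjusted p of 0.163 and 0.105 in wild-type with the block, from limma. Over all genes the block called 65.8% in wild-type and 45.6% in adr-2(-), and the overlap of those calls was not counted. In the fit of all 12 libraries 2 members (nlp-4 and nlp-16) were higher, or 2.30%, beside 11.2% of all genes higher and 11% lower. The 2 comparisons share no library, and 76 of the 86 members tested in both lay above 0 in both. Of all genes, 51.5% were above 0 in wild-type and 48.8% in adr-2(-), and those above 0 in both were not counted.

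The largest estimate in adr-2(-) was that of nlp-4. It had 77.4, 60.1 and 36.8 normalized reads in the control libraries and 178, 219 and 203 in the sqd-1 RNAi libraries, so the groups did not overlap. The log2 fold change was 1.82 ± 0.36 (SE; adjusted p = 0.0682 from limma, or 0.00822 with the replicate block). For nlp-34 the counts were 16.3, 44.6 and 6.003 on control and 63.3, 203 and 13.3 on sqd-1 RNAi, which rose within each same-numbered pair although the groups overlapped, at 1.70 ± 1.08 (SE; adjusted p = 0.37, or 0.0125 with the block, from limma). The gene nlp-29 had counts of 122, 49.8 and 103 and then 282, 285 and 112, at 1.27 ± 0.52 (SE) and an adjusted p of 0.225 from limma, or 0.0656 with the block. Replicate 3 hardly differed from its control there. The fall of nlp-36 was at -0.95 ± 0.45 (SE), with counts of 703, 1071 and 605 and then 315, 734 and 273 and an adjusted p of 0.263, or 0.0103 with the block, from limma.

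Several neuronal genes called in wild-type were called in adr-2(-) with the block. For flp-11 the counts were 78.4, 173 and 38.3 on control and 127, 329.9 and 85.4 on sqd-1 RNAi, a log2 fold change of 0.92 with an adjusted p of 0.448, or 0.0156 with the block, from limma. The gene flp-17 had counts of 77.4, 108.13 and 60.8 and then 144, 214 and 97.2, at 0.84 and 0.267, or 0.0178 with the block. For flp-18, with 76.5, 158 and 73.5 and then 172, 279 and 139, the values were 0.96 and 0.251, or 0.0111 with the block. In each of these genes replicate 2 was the highest library of both groups, and each same-numbered pair rose. By list, the block called 2 of 5 sleep genes, 2 of 4 egg-laying genes, 5 of 8 motor genes, 1 of 2 genes for NPR-1 ligands and 1 of 10 epidermal genes, all higher. The motor genes were flp-8, flp-1, flp-18, flp-14 and nlp-9. Of the other lists, the block called 5 of 10 processing enzymes, 5 of 67 receptors, 10 of 19 neprilysins, 6 of 6 muscle markers and 10 of 10 sperm markers higher, and 7 of 8 oocyte markers lower. Among all genes the block called 17.1% higher and 28.5% lower. The shares of receptors and of epidermal nlp genes called higher were below that of all genes.

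**Figure D3:**
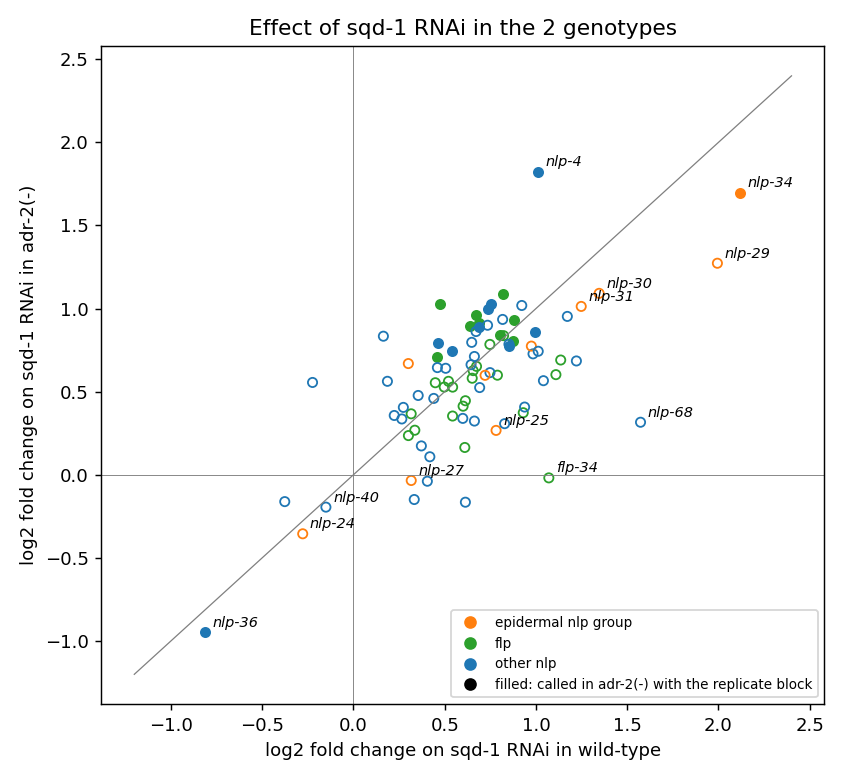
Log2 fold change on sqd-1 RNAi in adr-2(-) (y axis) against that in wild-type (x axis) for the 86 members tested in both, with the line of equal change. Filled points were called in adr-2(-) with the replicate block; 76 of the 86 points lie above 0 on both axes, and nlp-4 lies above the line while nlp-68 and flp-34 lie far below it.

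The epidermal group and the rest of the family went apart in the adr-2(-) libraries. Outside the epidermal group the summed level was 5943, 10621 and 5409.6 normalized reads in the 3 control libraries and 7527, 15397 and 5716 in the 3 sqd-1 RNAi libraries, so replicate 2 was highest in both. The epidermal group summed to 5959, 2905 and 3863 on control and 5500.0, 4536 and 3554 on sqd-1 RNAi, and there replicate 2 was the lowest control. Its share of the family's normalized reads was 21.5% and 22.8% in these replicate 2 libraries and 38.3% to 50.1% in the other adr-2(-) libraries, beside 39.0% to 47.3% in wild-type. Other tissue markers also differed in replicate 2. Markers of the epidermis summed to 21501, 43138 and 27655.5 on control and 18347, 32616 and 20304 on sqd-1 RNAi. Replicate 2 was thus highest for their sum in both, unlike for the epidermal nlp group. In wild-type controls the markers lin-26, rol-6, dpy-7 and wrt-2 averaged 1299, 197, 17.6 and 16.5 normalized reads. Other markers of the list therefore carried most of its sum. Muscle and oocyte markers were highest in replicate 2 of both as well. Intestine markers summed to 20055, 39631 and 15780.1 on control and 20375, 40640.5 and 14041 on sqd-1 RNAi, with replicate 2 highest in both. Pan-neuronal markers instead summed to 6498, 5089.9 and 8304 and 5411, 4838 and 5784, with replicate 2 lowest in both. A large part of that sum can come from maco-1, which averaged 2640 in wild-type controls, where the sum was 5922 to 6974. The part of these differences in the values of the family was not tested.

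**Figure D4:**
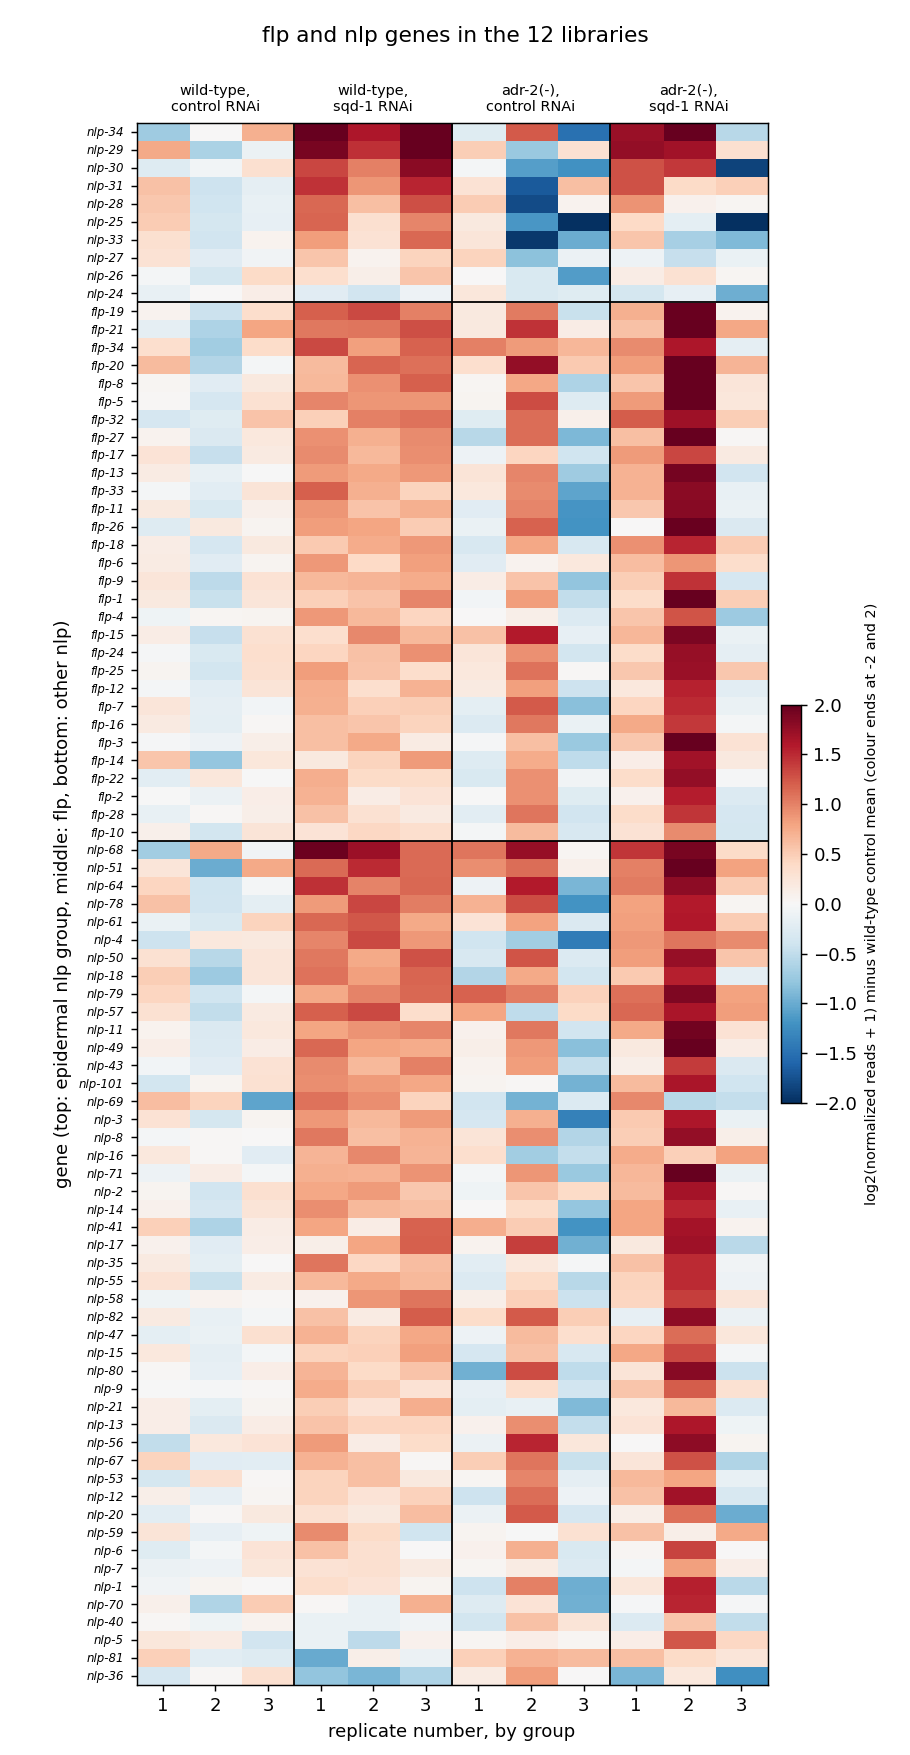
Each tested member (rows) in the 12 libraries (columns, by group and replicate number), as log2(normalized reads + 1) minus the mean of the wild-type control libraries, on a colour scale that ends at -2 and 2. The wild-type sqd-1 RNAi columns are red for most rows, and replicate 2 of adr-2(-) is red for most rows outside the epidermal group on both RNAi treatments.

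**Figure D5:**
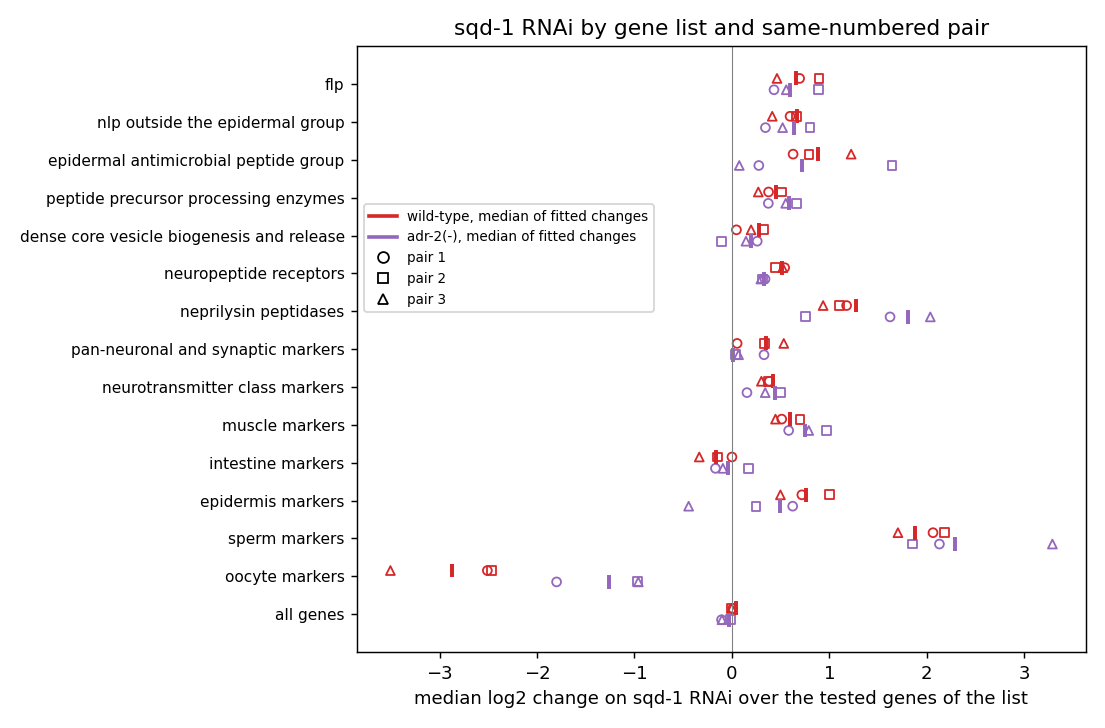
Median log2 change on sqd-1 RNAi (x axis) over the tested genes of each list (y axis), as the median of the fitted changes (vertical bars) and within each same-numbered pair of libraries (symbols), in wild-type (red) and adr-2(-) (purple). The flp genes and the nlp genes outside the epidermal group lie above 0 in all 6 pairs, with fitted medians of 0.60 to 0.66.

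No change of a flp or nlp gene was called between the genotypes on the same RNAi treatment. On control RNAi, limma called 0 of 84 tested members at a background of 0.00737% of all genes. The member nlp-4 alone had an unadjusted p under 0.05, as did 7.43% of all genes. Neither edgeR nor DESeq2 called a member, and each called 0.00737% of all genes. The median log2 fold change of adr-2(-) against wild-type was 0.01 over the members and -0.04 over all genes. On sqd-1 RNAi, limma, edgeR and DESeq2 called 0 of 89 members, at a background of 0% for limma and edgeR and 1.71% for DESeq2. The median was -0.01, and nlp-33 and nlp-27 had an unadjusted p under 0.05, as did 12.1% of all genes. Leaving out a library moved these medians between -0.24 and 0.33 on control RNAi and between -0.42 and 0.30 on sqd-1 RNAi. The median SE of a member was 0.42 on control RNAi and 0.46 on sqd-1 RNAi. Estimates as low as -1.24 and -1.78 were not called, so differences of that size could be missed as well as small ones.

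Both comparisons put the tested epidermal genes lower in adr-2(-), and none was called. All 10 estimates were below 0 on both RNAi treatments, with medians of -0.40 and -0.68, and they were below 0 as well under TMM, upper-quartile, edgeR and DESeq2 scaling. Without replicate 2 of the adr-2(-) control group, 4 of the 10 were above 0 on control RNAi. On control RNAi, normalized reads of the abundant nlp-33 were 983, 592 and 847 in the wild-type libraries, while those of adr-2(-) had 940.2, 192 and 369, a log2 fold change of -0.96 ± 0.54 (SE; adjusted p = 0.6 from limma). On sqd-1 RNAi its counts were 1659, 1099 and 2037 and 1313, 579 and 488, at -1.11 ± 0.43 (SE; adjusted p = 0.403 from limma). In both, replicate 1 of adr-2(-) lay within the wild-type range and the other 2 libraries below it. The lowest estimates were those of nlp-25, at -1.24 ± 0.69 and -1.78 ± 0.87 (SE), where replicate 3 of adr-2(-) had 9.94 and 8.45 normalized reads, with adjusted p of 0.6 and 0.437 from limma. The comparisons share no library, but the adr-2(-) replicates of the same number deviate together.

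Against wild-type on control RNAi, adr-2(-) animals on sqd-1 RNAi had a median log2 fold change of 0.66 over the 87 tested members, beside -0.09 for all genes. Of the members 81 were above 0, and of all genes 44.3%. Limma, edgeR and DESeq2 each called 0 members, at backgrounds of 0.0422%, 1.37% and 6.22%. By limma, 10 members had an unadjusted p under 0.05, beside 15.9% of all genes. Without replicate 2 of adr-2(-) on sqd-1 RNAi, nlp-36 alone was called, as lower. This comparison shares its control libraries with that of sqd-1 RNAi in wild-type. The difference of the sqd-1 RNAi effect between the genotypes was tested over all 12 libraries. Limma, edgeR and DESeq2 each called 0 of 87 members, at a background of 0% of 14266 genes, for each tool. By limma 0 members had an unadjusted p under 0.05, beside 1.44% of all genes, and with the replicate block 1 (nlp-68) did. The median difference of the effects, adr-2(-) minus wild-type, was -0.12 on the log2 scale, and 0.05 over all genes. The lowest and highest members were nlp-68, at -1.31 ± 0.79, and nlp-4, at 0.74 ± 0.41 (SE), with an adjusted p of 0.9998 for both, from limma. For nlp-68 the adr-2(-) libraries had 15.3, 24.03 and 6.75 normalized reads on control and 19, 28.3 and 9.40 on sqd-1 RNAi, and for flp-34, at -1.15 ± 0.65 (SE) and the same adjusted p, they had 21.99, 18.9 and 16.5 and then 19.9, 34.4 and 9.40. For both genes the adr-2(-) groups overlapped. The median SE of this difference over the members was 0.65, or 0.33 with the replicate block, so differences in response of the size of these SEs were not detectable here.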

How the data were processed

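Poly-A RNA of whole young adult worms was sequenced as stranded libraries, in 4 groups of 3. Growth lasted 60 h per the series' design text and 72 h per the labels' protocols. STAR 2.7.10b and DESeq2 were used, per the submitters' processing notes; the genome build, the counting tool, the treatment of multi-mapping reads and the use of strand are not given in the sources used here. The authors deposited 5 pairwise tables of 6 libraries each. The values are a signal that the authors made by dividing read counts per gene by 1 size factor per library within each table, and all 690228 values gave whole reads within a tolerance of 0.0001 reads. The authors' deposited columns also hold log2 fold changes with their SE, a test statistic (a score) and p-values; only their calls at the threshold are quoted.

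From the deposited values, log2(value + 1) was tested with limma 3.58.1 in R 4.3.3 (moderated by trend), within each table, on genes with a mean of at least 10 normalized reads. P-values were adjusted by Benjamini-Hochberg over all genes tested, and a gene was called at an adjusted p under 0.05. Fold changes are on that log2 scale, on which the change of a low gene is understated. Genotype by RNAi interaction was fitted over 12 libraries scaled by median of ratios. Count tests on the recovered reads with edgeR 4.0.16 and DESeq2 1.42.0 were alternatives, beside other pseudocounts, filters and scalings, a replicate block, a fit of all libraries and leaving out each library. The limma, edgeR and DESeq2 steps were tested on simulated data. Same-numbered libraries deviated together within a genotype (r of 0.25 to 0.27 in wild-type and 0.64 to 0.82 in adr-2(-)) but not between genotypes, so numbers pair libraries within a genotype, a pairing that comes from the data and not from the labels.

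Names, positions and exon lengths came from the WBcel235 annotation, release 115. The choice of these families, which takes in every gene of the name, and of the role and pathway lists was made with earlier results of these data known, so counts over a list are descriptions. Named genes are the 12 called members with the largest rise and fall in wild-type, every called member of the role lists, the 5 highest in wild-type controls, up to 4 called genes per pathway list, and the same genes in the other comparisons; nlp-4, nlp-16, nlp-27 in adr-2(-), flp-3, flp-14 and nlp-9 were added after their values were seen. Sequences were not used here.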

Additional observations from a re-analysis of the deposited data

How the results depend on the processing

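In wild-type, the 51 members called on sqd-1 RNAi became 4 when all 12 libraries were fitted together (4.60% of the members higher, beside 13.2% of all genes), 29 without control replicate 2, 29 to 47 over the libraries left out in turn, and 13 at an absolute log2 fold change of at least 1. The other settings kept the count within 1.5 times of 51. The median log2 fold change of 0.66 was 0.88 with edgeR and 0.55 to 0.74 without single libraries. In adr-2(-), 0 members became 19 with the replicate block, 1 with a pseudocount of 10 (nlp-4), 1 with DESeq2 (nlp-4) and 2 with all 12 libraries in one fit (2.30% of the members higher, beside 11.2% of all genes), and stayed 0 without each library, while the median ran from 0.18 to 0.93. With the replicate block 56 members were called in wild-type and 0 in each comparison between genotypes. Replicate numbers pair libraries only within a genotype, so the block has no basis in the pairwise comparisons between genotypes. Its count of 0 there adds no evidence. The count of 0 for adr-2(-) on sqd-1 RNAi against wild-type on control RNAi ran from 0 to 1 and its median from 0.24 to 1.03 without single libraries. Medians ran from -0.24 to 0.33 and from -0.42 to 0.30 for adr-2 loss on control and sqd-1 RNAi, and from -0.49 to 0.22 for the interaction. Estimates near 0 changed sign. In wild-type, nlp-40 was at 0.0065 with upper-quartile scaling and 0.052 with edgeR. In adr-2(-), flp-34 was at 0.025 with a pseudocount of 10, 0.019 with TMM, 0.028 with upper-quartile scaling, 0.27 with edgeR and 0.18 with DESeq2, and nlp-27 was at 0.0036 with TMM, 0.011 with upper-quartile scaling and 0.0038 with edgeR. Without single libraries of adr-2(-), flp-24 from -0.15 to 0.80, flp-34 from -0.44 to 0.44, nlp-25 from -0.43 to 1.29, nlp-27 from -0.37 to 0.29, nlp-40 from -0.51 to 0.0079, nlp-68 from -0.14 to 0.72 and nlp-78 from -0.17 to 1.07 spanned 0. The causes were not tested. Members with few reads, such as nlp-64 and nlp-68, carry the widest counting error, and 11 members were too low to test.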
